A study of Homo sapiens with 12 samples.

Results

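The 10 genes described here encode subunits of SF3a (SF3A1, SF3A2 and SF3A3), SF3b (SF3B1, SF3B2, SF3B3, SF3B4 and SF3B5) and U2AF (U2AF1 and U2AF2), the protein machinery that marks the end of an intron. They were chosen by gene symbol, with the row of highest mean count taken for each symbol, and all 10 were found among the 22564 genes of the table, each under 1 gene ID. The libraries came from total RNA of A549, a human lung adenocarcinoma cell line grown in culture, with 6 transfected with small interfering RNA against YTHDC1 (siYTHDC1) and 6 with a scrambled control (siSCR), at 40 nM for 48 to 72 h. No other treatment is named by the labels for either group. YTHDC1 binds RNA that carries N6-methyladenosine (m6A) in the nucleus, and the study examined intron retention after its depletion.

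An intron is first recognised at its 3′ end by the U2AF heterodimer: U2AF2 binds the pyrimidine tract and U2AF1 contacts the AG dinucleotide that closes the intron. The U2 small nuclear ribonucleoprotein (snRNP) then pairs with the branch site, held there by SF3a and SF3b. SF3B1 is the large scaffold of SF3b, and it wraps around the branch site adenosine.

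The value given for each gene is the authors' mean normalized count, the average over all 12 libraries of the reads assigned to the gene after scaling for depth. It joins siYTHDC1 and siSCR libraries in 1 number, so it has no SD and shows no difference between the groups. The fold changes and p-values of the table are the authors' own comparison of siYTHDC1 with siSCR and were not used, and values per library were not analysed here. What follows is therefore a description of how abundant these transcripts were in the A549 libraries as a whole and of how their genes are built, without a test. The depth of each library cannot be read from a mean.

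The epithelial markers of the line were all found, and KRT18 led them at 4858 mean normalized counts per kb of annotated exon, while EPCAM was lowest at 24.04. Of 8 alveolar markers 3 had a value, with ABCA3 highest at 134 and LAMP3 lowest at 2.67 mean normalized counts per kb. NKX2-1, SFTPA1, SFTPB, SFTPC and SFTPD had no value here. Of the measured alveolar markers, ABCA3 lay above 81.3% of genes per kb, NAPSA above 20.3% and LAMP3 above 13.5%. Of 9 blood, endothelial and stromal markers 4 had a value, between 0.30 for PDGFRB and 21.5 for COL1A1 on the same scale.

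The sequences that these proteins read stand at the 3′ ends of introns, and the members' own introns show the range. Each line gives the last 25 bases of an intron and the first 3 of the next exon, 5′ to 3′ on the strand of the gene in GRCh37, with the last 3 intron bases in capitals. Introns are numbered along the canonical transcript of the annotation.
U2AF2 intron 8 (chr19:56180011-56180038, plus strand): cctgatggactctcggctactgCAGgtc
U2AF2 intron 10 (chr19:56180785-56180812, plus strand): gccgctgcctcccctggccccaCAGagc
U2AF1 intron 3 (chr21:44515851-44515878, minus strand): ccagcaagatttctgttgtttgCAGgtg
SF3B1 intron 6 (chr2:198274729-198274756, minus strand): aataaaatttttttgcttttttAAGacc
SF3B1 intron 12 (chr2:198267757-198267784, minus strand): gcttcttctcttttctctttttCAGatc
SF3B1 intron 15 (chr2:198266610-198266637, minus strand): acatatattttttatttaaaaaTAGggt
SF3B2 intron 17 (chr11:65830846-65830873, plus strand): tgaatgataaagtgatctctttCAGacc
SF3B3 intron 8 (chr16:70575547-70575574, plus strand): gtttctctcctctgcttcttccCAGtta
SF3A1 intron 14 (chr22:30731525-30731552, minus strand): gaatgaccgctgcttgatcccaCAGgtc
SF3A3 intron 3 (chr1:38453348-38453375, minus strand): ctttgaaattttcctgaaattgCAGatt

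They were chosen, after their values were seen, to show long and short pyrimidine tracts and each base found before the closing AG. In SF3B1 intron 12 all 20 bases before the AG are pyrimidines. In U2AF2 intron 8, SF3B2 intron 17 and SF3A3 intron 3 it is 11 of 20, the fewest of any member intron.

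By mean normalized count, the 10 genes spanned from 333 for SF3B5 to 4113 for U2AF2, which places them above 69.0% and 98.3% of all genes in the table. A longer transcript gives more reads at the same number of molecules, so counts alone do not give the relative numbers of molecules. Levels were therefore also divided by length, that of the annotated exons unless another is named. The members had a median of 271 mean normalized counts per kb of annotated exon. It was 58.6 for the protein-coding genes measured and 32.2 for all genes with a known length. These background medians are given on this length only. Of the 10, 9 lay above at least 89.4% of genes per kb, the exception being U2AF1.

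The SF3a genes lay close together. SF3A1 (ENSG00000099995.14, chromosome 22, 30727977 to 30752908, minus strand) had 1732 mean normalized counts and 275 per kb. SF3A2 (chromosome 19, 2236823 to 2248654, plus strand), a zinc finger subunit, had 745 mean normalized counts and 267 per kb. SF3A3 (chromosome 1, 38422647 to 38455747, minus strand), the subunit that bridges SF3a to the snRNP, had 899 mean normalized counts and 231 per kb. Per kb of annotated exon the highest of these subunits was 1.19 times the lowest, whereas by mean count alone SF3A1 stood 2.32 times above SF3A2.

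The 5 SF3b members covered a wider range. SF3B1 (ENSG00000115524.11, chromosome 2, 198253239 to 198299803, minus strand) had the highest mean normalized count of these 5 at 3898, with 374 per kb. SF3B3 (chromosome 16, 70557694 to 70611573, plus strand), a large beta-propeller protein that packs against SF3B1, had 3722 mean normalized counts and 299.8 per kb. SF3B2 (chromosome 11, 65818200 to 65836779, plus strand), which binds SF3B4, had 2107 mean normalized counts and 215 per kb of annotated exon. The latter was the lowest of the 5 on that length. The annotated exons of SF3B2 cover 2.99 times its canonical transcript, and on the canonical length it was the highest of the 5 at 644 per kb.

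The small subunits changed places between the scales. SF3B4 (chromosome 1, 149895209 to 149899695, minus strand), an RNA-binding protein that crosslinks near the branch site, had 410 mean normalized counts and 241 per kb. SF3B5 (ENSG00000169976.5, chromosome 6, 144416021 to 144416710, minus strand), a very small subunit that binds SF3B1 and SF3B3, had the lowest mean normalized count of all members and, at 482 per kb of annotated exon, the second highest level on that length, but it took place 3 of 10 by the longest transcript and by coding length and place 5 by the canonical transcript. Its exons cover 690 bases in all, against 10421 for SF3B1 and 12416 for SF3B3. Per kb of annotated exon the 5 SF3b members differed by 2.24 times from SF3B5 to SF3B2. By mean count alone they differed by 11.7 times from SF3B1 to SF3B5. By canonical transcript the range ran from SF3B2 to SF3B4 instead, a ratio of 2.43, with SF3B5 below SF3B2. SF3B14 and PHF5A were placed with the other core proteins of the U2 snRNP and are not in these ratios. PHF5A had 290 mean normalized counts, fewer than SF3B5.

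U2AF2 and U2AF1 stood at opposite ends of the order per kb of annotated exon. U2AF2 (ENSG00000063244.8, chromosome 19, 56165512 to 56186082, plus strand) had 4113 mean normalized counts and 1018 per kb, the highest member on every length used. U2AF1 (ENSG00000160201.7, chromosome 21, 44513066 to 44527680, minus strand) had 1065 mean normalized counts and 96.0 per kb, above 73.9% of genes. That low value rests on the annotation. The exons of all 11 annotated U2AF1 transcripts together cover 11095 bases, 11.7 times the 945 bases of its canonical transcript, and on the canonical length U2AF1 reached 1127 per kb, second to U2AF2 at 1916. The ratio of U2AF2 to U2AF1 was accordingly 10.6 by annotated exons and 1.70 by canonical transcripts. The counts were made on an earlier annotation release, whose exon lengths were not used here, so 96.0 divides a count on one annotation by the exons of another. Among the other members this length ratio was highest for SF3B2.

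**Figure D1:**
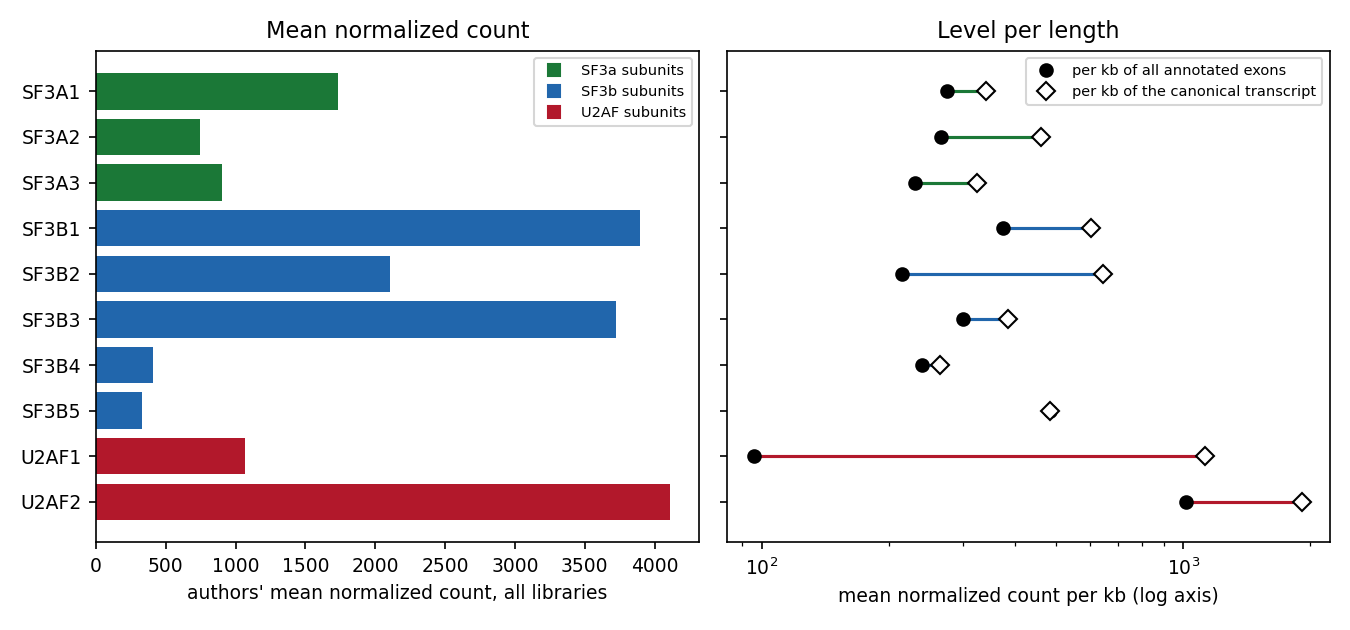
Left, the authors' mean normalized count over all libraries for each member (bars, coloured by complex); right, the same value per kb of all annotated exons (filled circles) and per kb of the canonical transcript (open diamonds) on a log axis. U2AF2 leads on each scale, SF3B5 is lowest by count at 333, and U2AF1 moves from 96.0 to 1127 per kb with the length used.

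The members' levels were then set beside other splicing genes per kb of annotated exon. The 10 SF3 and U2AF genes had a median of 271 mean normalized counts per kb. The 4 other core proteins of the U2 snRNP had a median of 266, with SF3B14 (now SF3B6, which touches the branch site adenosine) highest at 426 and SNRPA1, which binds a stem-loop of U2 RNA, lowest at 188. The 7 Sm ring proteins, shared by most spliceosomal snRNPs, had a median of 211, from SNRPD2 at 709.8 to SNRPD1 at 119. The 16 measured helpers of branch site and 3′ splice site recognition had a median of 225, led by the branch point binding protein SF1 at 609 and with SUGP1 lowest at 54.2. No test was made between these lists, and their medians lay within the range of the single members. Coding length changed the order of the lists. By that length the members had a median of 891 per kb. The other U2 core proteins had 1014, the Sm ring proteins 1778 and the helpers 718.

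Of the other snRNPs, the 5 measured U1 proteins, which act at the 5′ splice site, had a median of 398 per kb, with SNRNP70 at 469.8 and LUC7L at 123. The 16 proteins of the U4/U6.U5 tri-snRNP had a median of 223, from PRPF8, the core of the active spliceosome, at 989 to PPIH at 44.2. PRPF8 was the gene of these lists nearest to U2AF2. The 9 proteins of the minor spliceosome, which removes a small class of introns, had a median of 40.8, from PDCD7 at 152 to SNRNP35 at 28.1. The relatives of U2AF1 were lower still, at 14.6 for U2AF1L4 and 11.2 for ZRSR2, the protein that recognises the 3′ splice site of minor introns. All 10 members stood above both relatives, on a scale where YTHDC1 itself had 33.0. That value joins siYTHDC1 and siSCR libraries and does not check the knockdown. By coding length the median was 1263.5 per kb for the U1 proteins, above the 891 of the members. It was 638 for the tri-snRNP and 339 for the minor spliceosome.

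**Figure D2:**
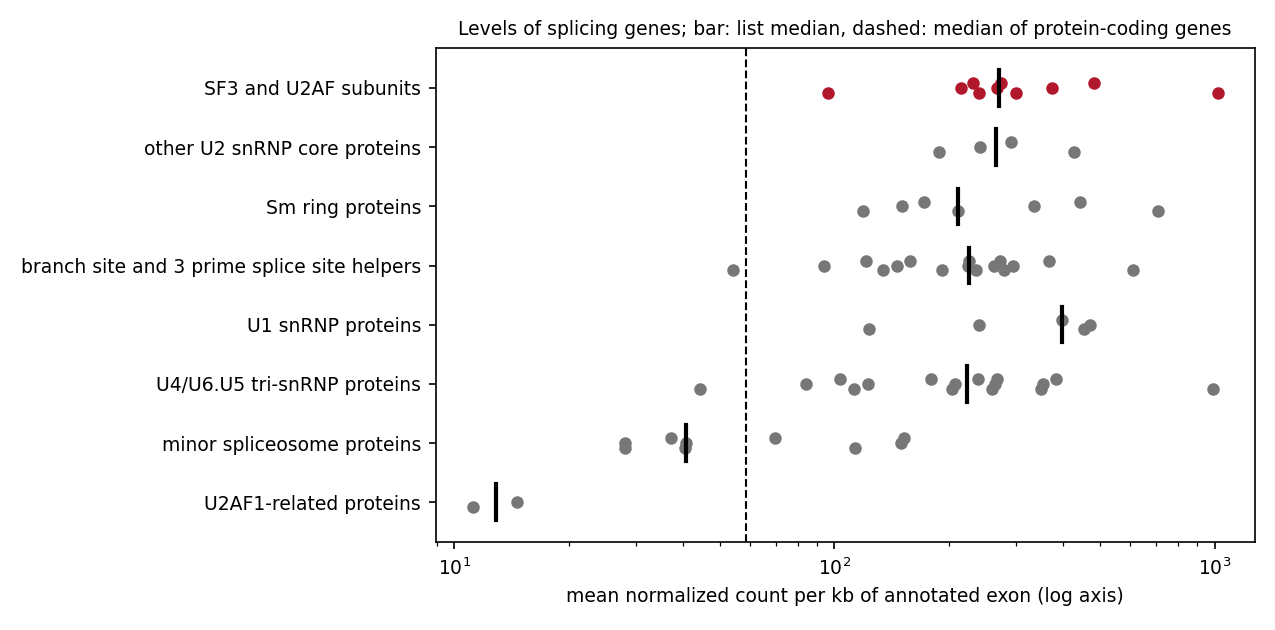
Mean normalized count per kb of annotated exon (log axis) for each gene of 8 lists of splicing genes, with SF3 and U2AF subunits in red on top, list medians as bars and the median of protein-coding genes (58.6) as a dashed line. The SF3 and U2AF median of 271 lies within the values of the other major spliceosome lists and above all genes of the minor spliceosome.

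The members differ widely in how many introns they hold. Their canonical transcripts hold a median of 13 introns, against 8 over 14000 other protein-coding genes. SF3B3 has 25, SF3B1 24 and SF3B2 21, whereas SF3A2 has 8, U2AF1 7, SF3B4 5 and SF3B5 none. The lack of introns is a feature that 2.21% of the other genes share. Together the 9 spliced members hold 132 introns, with a median length of 801 bases against 1551 in the other genes. The longest, of 10997 bases, is the first intron of SF3B1, and the shortest, of 79 bases, lies in SF3A2.

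All 132 member introns end in AG, as do 99.9% of the 152087 introns of other protein-coding genes. All but 1 begin with GT, and the exception, intron 10 of U2AF2, begins with GC. The pyrimidine tract that U2AF2 binds filled a median of 80% of the 20 bases before the AG, ranging from 55% to 100% among member introns, against a median of 75% in the other genes. A step of 1 base is 5%, so the medians differ by 1 base. Over the last 15 or 30 bases the medians of member introns and other introns were equal, at 80% and 70%. By gene, the median was 90% in U2AF2 and SF3B4 and 70% in SF3A1 and SF3B1.

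**Figure D3:**
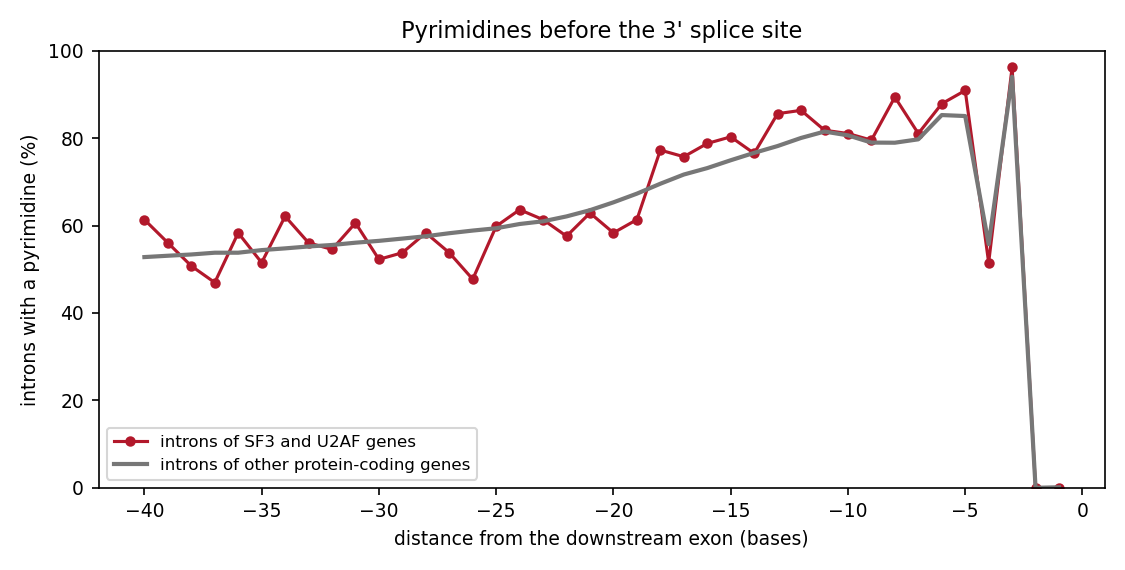
Share of introns with a pyrimidine (y axis, percent) at each of the 40 bases before the downstream exon (x axis), for 132 introns of SF3 and U2AF genes (red) and 152087 introns of other protein-coding genes (grey). Both curves climb towards the exon, dip at the fourth base before it and fall to 0 or near it at the terminal AG.

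The tracts also differed between members in composition. Cytosine made up 20.7% of the pyrimidines in SF3B1, where the tracts are mostly runs of T, and 63.5% in U2AF2 and 61.0% in SF3A2, against 39.8% in the other genes. The whole mature SF3B1 transcript has 40.8% G and C, the lowest of the members, and that of SF3A2 has 66.5%, the highest. The part of the overall base composition in the tracts was not tested.

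The base just before the AG varied between members as well. In SF3B1, 7 of 24 introns end in CAG, 15 in TAG and 2 in AAG, and in SF3B3 it is 12 CAG and 13 TAG of 25. In U2AF1 all 7 introns end in CAG, and in U2AF2 9 of 11 do. Over all 132 member introns, C stood before the AG in 62.1% and T in 34.1%, against 63.9% and 30.2% in the other genes. The set as a whole lay near the background, while single members lay on both sides of it. C was at 29.2% in SF3B1, 40% in SF3B4 and 48% in SF3B3, and at 87.5% in SF3A2 and 100% in U2AF1. The spread of this share between other genes was not computed. Introns of 1 gene share its sequence context and are not replicates, so no test was made.

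**Figure D4:**
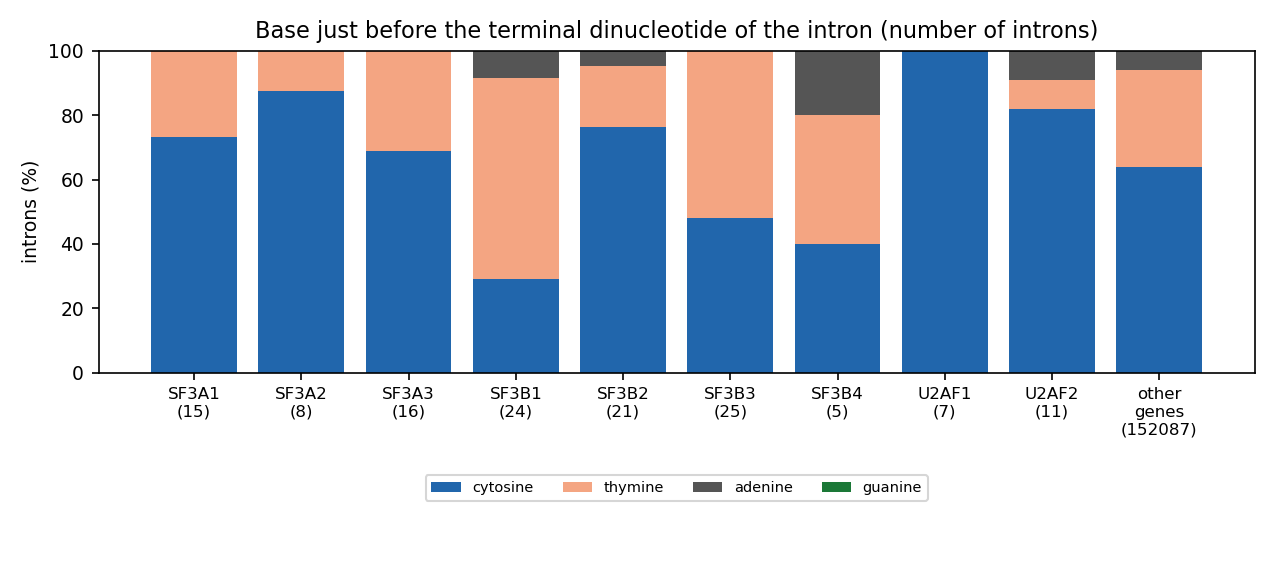
Stacked bars of the base just before the terminal AG, as a percent of introns, for each member with introns and for other protein-coding genes, with the number of introns in brackets. Cytosine is least frequent in SF3B1 (29.2%) and present in all 7 introns of U2AF1, beside 63.9% in other genes.

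A branch site was looked for by the letters CTNAC, on the strand of the gene, in the window from 44 to 18 bases before the exon. It was found in 26 of 132 member introns (19.7%), against 17.6% of introns in other genes. SF3B4 had it in 4 of 5 introns and SF3B1 in 1 of 24, and human branch sites vary widely, so introns without these letters may use others. The letters GGACT, a common form of the m6A consensus, were counted in the mature canonical transcripts on the sense strand. All 10 members hold at least 1, as do 91.5% of the 14000 other protein-coding genes. The members had a median of 1.10 per kb against 0.94, and 6 of the 10 lay above that background median. U2AF2 had 1.86, SF3B5 1.45 from 1 in 690 bases, SF3B2 1.22 and SF3A1 1.18. SF3B3, which holds 11, had 1.13, and U2AF1 had 1.06. Below the background median were SF3A3 at 0.72, SF3B4 at 0.65, SF3A2 at 0.62 and SF3B1, which holds 2 in 6463 bases, at 0.31. The median share of G and C was 53.5% in the members and 48.8% in the other genes, and its part in these counts was not tested. The letters show where the mark could be placed, and no methylation was measured in these libraries.

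Neighbouring genes limit some of these levels, since reads in shared exons cannot be assigned to 1 gene without strand, and strand-specific counting is not given in the sources used here. CCDC157 shares 190 exon bases with SF3A1 on the opposite strand and had 58.6 mean normalized counts, and PLEKHJ1 shares 78 with SF3A2 and had 280. An antisense long non-coding RNA shares 263 bases with SF3B2 at 3.64 mean normalized counts, and another shares 113 with U2AF2 at 1.94. On the same strand, the small nucleolar RNA snoU13 lies within 85 exon bases of SF3B2 and had no value here. At U2AF1, the later annotation release used here holds a gene of type artifact that shares 945 exon bases on the same strand. It holds another that shares 46 on the opposite strand. Neither had a value here, and whether the release counted on held them was not checked. The part of these overlaps in the members' levels was not tested.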

How the data were processed

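Stranded total RNA libraries of A549 cells were made after DNase digestion and depletion of ribosomal RNA. The authors aligned reads with STAR 2.7.0 to hg19, used HTSeq for gene counts on GENCODE 19 and compared the groups with DESeq2 1.34.0, with sequencing batch as a further term. The signal used here is the deposited mean normalized count of each gene over all libraries. The other 5 numeric columns hold the authors' log2 fold change, its standard error, a statistic and p-values, and were not used. Groups came from the sample labels. Without values per library, no group comparison, interval or paired fit was made.

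Of the gene IDs, 21798 (96.6%) matched GENCODE 44 mapped to GRCh37 after removal of version numbers, a later release than the authors counted on. Levels were divided by the union of all annotated exons. The exon, canonical transcript and splice site values come from that annotation and genome, for protein-coding genes and introns of at least 60 bases. Python 3.11.15 and pysam 0.24.0 were used, and the length, intron and motif functions were tested on made-up input. All members were named, with the highest and lowest gene of each other list. The members and lists were chosen with earlier results of these data known. Alternatives were other lengths, filters on low counts and other tract windows.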

Additional observations from a re-analysis of the deposited data

How the results depend on the processing

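Of 98 alternative values, 63 stayed within 1.5 times the value given, the limit used because a pooled mean has no spread between replicates. Many of the 63 could not move or had little room to, as given below, so this tally does not measure stability. Of 40 alternative levels per kb of single members, 17 moved beyond the limit. The 23 that stayed include the sums over gene IDs, which could not differ. With no length correction the highest SF3a gene was 2.32 times the lowest, the highest of the 5 SF3b members 11.7 times and U2AF2 3.86 times U2AF1. With coding lengths these ratios were 4.0004 for SF3b and 1.95 for U2AF, and the median of all 10 members was 891 per kb, higher by construction because coding sequences are shorter. The ratio of U2AF2 to U2AF1 was 5.91 with the longest transcript and 1.70 with the canonical transcript, a length added after the data were seen. Under these lengths 7 or 8 of the 10 members took another place in the order, while U2AF2 led each time. The lowest member was U2AF1 by annotated exons and by the longest transcript, SF3B4 by coding and canonical length, and SF3B5 by count. Among the 5 SF3b members, SF3B2 was lowest by annotated exons and highest by the longest and canonical transcripts. All 20 percentiles recomputed among genes at a mean count of at least 10 or among protein-coding genes stayed within 1.5 times. None of them had room to rise that far, and both alternatives kept the length of annotated exons. They therefore do not show how the percentiles depend on length. Summing over gene IDs left every member as it was, since each had 1. A filter on low counts left the medians of the splicing lists as they were, since all their genes passed it. The exception was the list of U2AF1 relatives, whose genes fell below the filter and gave no value. No paired analysis was possible because the table holds 1 pooled mean per gene.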

Other observations

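SF3B3 is also a host gene. The annotation places the small nucleolar RNAs SNORD111 and SNORD111B in its introns, on the same strand, and they had 10.4 and 10.9 mean normalized counts in the deposited table, against 3722 for SF3B3 itself. Small nucleolar RNAs guide chemical modification of other RNAs and are shorter than most fragments of such libraries, so these means describe what the libraries held of them and not their level in the cell.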
